A study of Mus musculus with 2 samples.

Results

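The 9 mast cell granule protease genes Cma1, Cpa3, Tpsb2, Tpsab1, Mcpt1, Mcpt2, Mcpt4, Mcpt8 and Gzmb were examined among the 23284 genes of the data set. They were chosen by name, with their levels in these libraries already known, so that their values are given as a description and without a test. The libraries come from leukemic stem cells (LSCs) of mice with a BCR-ABL-driven disease that models chronic myeloid leukemia (CML). LSK cells, the fraction of bone marrow without lineage markers and with Sca-1 and c-Kit on its surface, were transduced with a retrovirus for human p210 BCR-ABL and green fluorescent protein (GFP) and transplanted into lethally irradiated mice, and GFP+ CD45.2+ LSK cells were sorted from the recipients at day 11. There was 1 library from wild type (WT) donor cells and 1 from STAP-1 KO donor cells, which carry a targeted disruption of the STAP-1 gene, both on the C57BL/6J background. BCR-ABL, its vector and the transplantation are common to both libraries, the mice of the study were 8 to 14 weeks old, and the number of mice behind a library is not given in the sources used here.

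Mast cells and basophils are granulocytes that arise from hematopoietic progenitors, and mast cells depend on signals through c-Kit. Their secretory granules hold large amounts of active proteases bound to serglycin, a proteoglycan whose negatively charged chains retain them. Chymases typically, though not in every member of the family, cleave after aromatic residues. Tryptases cleave after lysine or arginine, and the metalloprotease carboxypeptidase A3 removes residues from the carboxy terminus. In mice, Mcpt4, Cma1, Tpsb2 and Cpa3 are typical of connective tissue mast cells, Mcpt1 and Mcpt2 of mucosal mast cells, and Mcpt8 of basophils. Gzmb encodes granzyme B, best known from cytotoxic lymphocytes and also made by mast cells.

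Values are FPKM (fragment counts divided by the length of the transcript and by the size of the library), so that levels can be compared between genes per length. Each genotype has a single library, so none of the differences can be checked against replicates, and p-values were not computed. Effective depths of 7500000 reads (WT) and 10470000 reads (STAP-1 KO) were estimated from the steps between low values. They are approximate, since 46.8% and 48.1% of the low values tested lay on whole reads, to within 0.01 of a read. Counting intervals below rest on these depths, are exact 95% intervals and cover counting error only. Stap1 itself had 61.95 FPKM in WT LSCs and 0.309 FPKM in STAP-1 KO LSCs. Of the antigens of the sort, Kit had 468 and 30.1 FPKM and the Sca-1 gene Ly6a 285 and 106 FPKM, so that the transcripts of both were lower in STAP-1 KO LSCs although the same gate was used. Of the antigens used to remove lineage-positive cells, the genes Cd3e, Cd8a and Itgam were at 1.82 FPKM or less in both libraries. In bulk RNA, fewer cells of a type and less RNA per cell cannot be told apart.

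The protease genes lie at 3 loci of GRCm38, and the positions given are those of GENCODE M21. Cma1 (chromosome 14, 55941451 to 55944675, minus strand), Mcpt1 (56017971 to 56020384, plus strand), Mcpt2 (56042041 to 56044642, plus strand), Mcpt4 (56059629 to 56062313, minus strand), Mcpt8 (56082166 to 56085273, minus strand) and Gzmb (56258838 to 56262260, minus strand) form the chymase locus. Tpsab1 (chromosome 17, 25343245 to 25345562, minus strand) and Tpsb2 (25366305 to 25369098, plus strand) belong to the tryptase locus, and Cpa3 lies alone on chromosome 3 (20215620 to 20242181, minus strand). All are annotated as protein-coding in GENCODE, whereas RefSeq lists Tpsab1 as a transcribed pseudogene. Mice of the C57BL/6 strain are known to carry a splice-site change in Tpsab1 and to lack its protein.

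RefSeq promoter sequences were given for 6 of the 9 genes (GRCm38.p6). Of these 6 genes, 5 were at least 2-fold lower in STAP-1 KO LSCs and Mcpt1 was not. The share at least 2-fold lower was 22.9% of all genes with at least 0.1 FPKM in both libraries. It was 30.9% of those with at least 200 FPKM in WT LSCs. Sequences of 5 of the 6 genes are shown so that they can be read beside the unequal ratios. The first 3 are the 250 bases before the RefSeq start site of the genes with the highest WT levels. RefSeq starts match the GENCODE spans above for Cpa3 and Cma1, but not for Mcpt1, Mcpt4, Gzmb and Mcpt8. The Gzmb window stops short of the GENCODE start (56262260), and the Mcpt8 window runs into the GENCODE span (which ends at 56085273). In the first 3, capitals mark E-boxes (CANNTG, which basic helix-loop-helix factors such as MITF can bind) and AGATAA, 1 form of the GATA motif, on either strand.
Cpa3, chr3:20242182-20242431, minus strand: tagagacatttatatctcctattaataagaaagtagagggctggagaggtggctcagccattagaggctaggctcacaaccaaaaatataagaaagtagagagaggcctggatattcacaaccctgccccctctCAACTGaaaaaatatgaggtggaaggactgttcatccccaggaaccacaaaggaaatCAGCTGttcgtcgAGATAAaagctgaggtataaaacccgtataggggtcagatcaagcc
Cma1, chr14:55944676-55944925, minus strand: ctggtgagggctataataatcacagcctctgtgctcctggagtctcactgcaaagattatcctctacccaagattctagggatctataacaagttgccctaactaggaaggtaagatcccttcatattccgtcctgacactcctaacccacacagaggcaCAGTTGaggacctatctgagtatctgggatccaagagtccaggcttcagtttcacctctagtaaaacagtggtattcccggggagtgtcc
Gzmb, chr14:56262335-56262584, minus strand: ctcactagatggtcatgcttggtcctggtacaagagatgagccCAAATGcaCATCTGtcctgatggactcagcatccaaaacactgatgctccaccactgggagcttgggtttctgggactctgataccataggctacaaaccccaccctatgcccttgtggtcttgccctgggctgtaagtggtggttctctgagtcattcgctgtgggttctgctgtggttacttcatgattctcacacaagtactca

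Cpa3 was the 1 gene of the 6 with an AGATAA motif, whose first base lies 46 bases before the start, and 9.99% of 32851 mouse promoter windows of the same length hold one. Other forms of the GATA motif were neither searched for nor marked. Examples are TGATAA in the sequences of Mcpt1 and Mcpt4, and AGATAG on the other strand of that of Cma1. An E-box was found in 4 of the 6, those of Cma1, Cpa3, Gzmb and Mcpt8, against 66.2% of all promoters. The Mcpt8 E-boxes that begin 60 and 20 bases before its RefSeq start lie inside its GENCODE span. The motifs CATGTG (a subset of the E-boxes, in 12.3% of all promoters) and TTCNNNGAA (a STAT motif, in 7.02%) were found in none of the 6. TATAAA was found in Cpa3, Mcpt1 and Mcpt4, against 12.4% of all promoters. A match is a description of the letters in this window and not a binding site.

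Mcpt1 and Mcpt4 are close relatives whose promoters are 81.5% identical. They are shown because their levels differed between the libraries to unequal degrees. Capitals mark the 43 bases of each that differ from the other or have no partner in their alignment of 254 columns.
Mcpt1, chr14:56017714-56017963, plus strand: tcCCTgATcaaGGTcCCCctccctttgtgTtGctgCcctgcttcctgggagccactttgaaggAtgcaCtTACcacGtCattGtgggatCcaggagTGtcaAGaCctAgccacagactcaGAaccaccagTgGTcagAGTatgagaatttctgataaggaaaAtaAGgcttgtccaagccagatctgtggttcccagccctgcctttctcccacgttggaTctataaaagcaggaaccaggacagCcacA
Mcpt4, chr14:56062311-56062560, minus strand: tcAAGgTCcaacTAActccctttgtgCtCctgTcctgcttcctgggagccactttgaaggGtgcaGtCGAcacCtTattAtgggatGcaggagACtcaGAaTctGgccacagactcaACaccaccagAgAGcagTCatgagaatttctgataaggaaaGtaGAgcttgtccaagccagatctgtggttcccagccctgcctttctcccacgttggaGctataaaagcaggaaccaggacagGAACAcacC

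The TATAAA motif begins 28 bases before the start in Mcpt1 and 32 bases before it in Mcpt4. Among the other pairs of the 6 promoters, identity was between 37.9% and 44.0%.

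The protease genes held 4 of the 5 highest values of the WT library, and all 9 had lower values in the STAP-1 KO library. Their summed level was 54010.3 FPKM in WT LSCs and 7301 FPKM in STAP-1 KO LSCs, 7.40-fold lower. This was 8.32% of all FPKM of the WT library and 1.21% of those of the STAP-1 KO library. A gene was compared where both libraries had 0.1 FPKM or more, and was called lower or higher from a 2-fold ratio upwards. By this rule 8 genes were lower, none was higher and 1, Mcpt1, did not reach the cut-off. Of all 12507 genes that could be compared, 22.9% were lower and 12.3% were higher by the same rule, and of the 446 with at least 200 FPKM in WT LSCs, the range in which the 9 genes lie, 30.9% were lower. Log2 ratios are log2((STAP-1 KO + 0.1)/(WT + 0.1)). Their median was -2.07 over the 9 genes, -0.25 over those 446 genes and -0.04 over the 10974 genes whose mean was 1 FPKM or more.

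**Figure D1:**
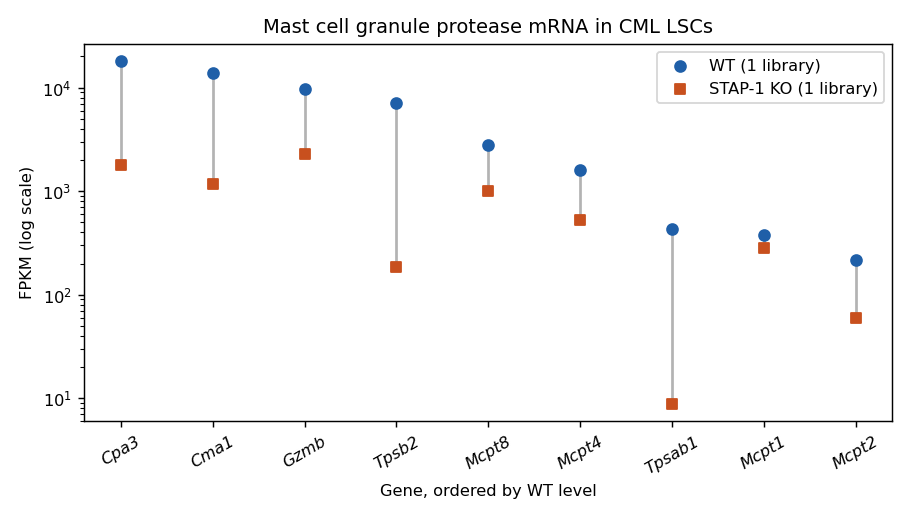
FPKM on a log scale of the 9 protease genes in the WT library (circles) and the STAP-1 KO library (squares), 1 library each, with a line joining the values of a gene. Every square lies below its circle, the gap being widest for Tpsab1 (430 and 8.74 FPKM) and narrowest for Mcpt1 (379 and 286 FPKM).

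The carboxypeptidase gene Cpa3 had 17984 FPKM in WT LSCs, the second highest value of all listed genes after the microRNA gene Mir682 and the highest of features of at least 200 bases. In STAP-1 KO LSCs it had 1774 FPKM and stood in place 17. It was 10.1-fold lower (counting interval 9.996 to 10.28). Cpa3 thus went from first to second among the 9 genes, behind Gzmb.

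Of the chymases, Cma1, also known as mast cell protease 5, had 13924 FPKM in WT LSCs and 1168 FPKM in STAP-1 KO LSCs, 11.9-fold lower (11.7 to 12.2). Its place among all genes went from 3 to 28. Mcpt4, the mouse chymase regarded as the closest in function to the human enzyme, had 1617 and 524 FPKM, 3.08-fold lower (2.98 to 3.19). The mucosal chymase Mcpt2 had 218 and 59.7 FPKM, 3.65-fold lower (3.30 to 4.04). Mcpt1, the other mucosal chymase, had 379 and 286 FPKM, a ratio of 1.33 (1.25 to 1.41) that did not reach the cut-off. The counting intervals of the 4 ratios did not overlap. They cover counting error only and leave out reads shared with related genes. Whether the ratios would differ in further libraries was not tested.

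The tryptase genes were lower by the largest ratios of the set. Tpsb2, also known as mast cell protease 6, had 7016 FPKM in WT LSCs, where it stood in place 5 of all genes, and 185 FPKM in STAP-1 KO LSCs, where it stood in place 595. It was 38.0-fold lower (36.4 to 39.7). Tpsab1 had 430 and 8.74 FPKM, about 5543 and 157 estimated reads, and was 49.1-fold lower (42.1 to 58.1). Of the 446 genes with at least 200 FPKM in WT LSCs, 2 had a lower log2 ratio than Tpsab1 and 4 a lower one than Tpsb2, Tpsab1 being one of these. Tpsb2 exceeded Tpsab1 by 16.3-fold in the WT library (15.9 to 16.8) and by 21.1-fold in the STAP-1 KO library (18.0 to 25.1).

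The remaining 2 genes encode granzyme B and the basophil protease. Gzmb had 9642 FPKM in WT LSCs and 2302 FPKM in STAP-1 KO LSCs, 4.19-fold lower (4.13 to 4.24). It stood in place 4 and place 7 of all genes, and in place 3 in both when features under 200 bases were left out. Mcpt8, whose product is used as a basophil marker, had 2801 and 993 FPKM, 2.82-fold lower (2.74 to 2.90), and stood in places 11 and 36. Among the 446 genes of high WT level, Mcpt8, Mcpt4, Mcpt2 and Gzmb took places between 69 and 106 from the lowest log2 ratio, Cma1 and Cpa3 places 26 and 32, and Mcpt1 place 206.

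**Figure D2:**
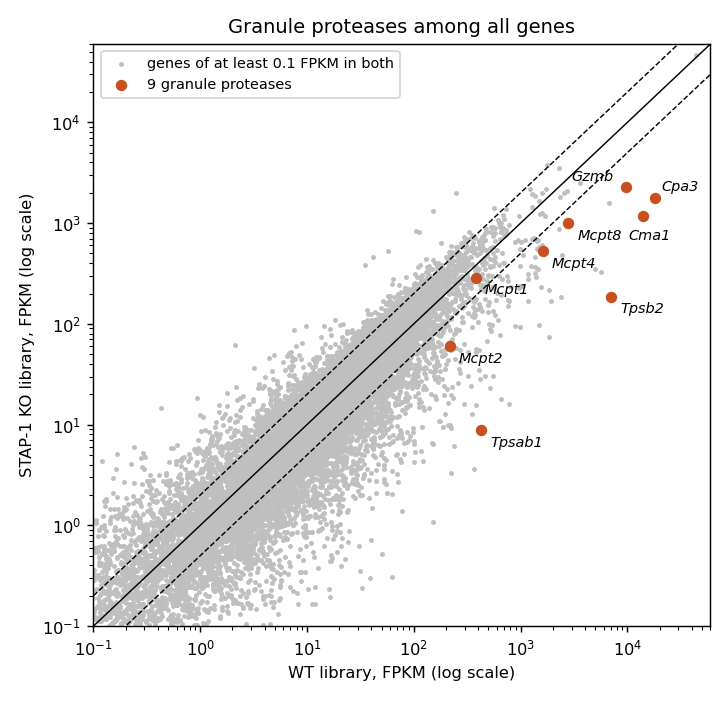
FPKM of each gene in the STAP-1 KO library against the WT library, both on log scales, for the 12507 genes with at least 0.1 FPKM in both (grey) and the 9 protease genes (coloured), with the line of equal values and dashed lines at 2-fold. Of the 9, Mcpt1 alone lies between the dashed lines, and Tpsb2 and Tpsab1 lie farthest below them.

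The make-up of the protease transcripts differed between the libraries. These shares and ratios are taken within a library and do not depend on how the libraries were scaled. In WT LSCs Cpa3 made up 33.3% of the summed FPKM of the 9 genes, Cma1 25.8%, Gzmb 17.9% and Tpsb2 12.99%. In STAP-1 KO LSCs Gzmb made up 31.5%, Cpa3 24.3%, Cma1 16.004% and Mcpt8 13.6%, and Tpsb2 made up 2.53%. The chymases Cma1, Mcpt1, Mcpt2 and Mcpt4 together took 29.9% and 27.9%, while the tryptases took 13.8% and 2.65% and Gzmb and Mcpt8 together 23.0% and 45.1%. Within the chymases, Cma1 exceeded Mcpt1 by 36.7-fold in the WT library (35.2 to 38.3) and by 4.09-fold in the STAP-1 KO library (3.91 to 4.28). Cpa3 and Cma1 stayed closer to each other, with Cpa3 at 1.29 times Cma1 (1.28 to 1.30) and at 1.52 times Cma1 (1.48 to 1.55). The order from high to low was Cpa3, Cma1, Gzmb, Tpsb2, Mcpt8, Mcpt4, Tpsab1, Mcpt1 and Mcpt2 in the WT library. It was Gzmb, Cpa3, Cma1, Mcpt8, Mcpt4, Mcpt1, Tpsb2, Mcpt2 and Tpsab1 in the STAP-1 KO library.

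**Figure D3:**
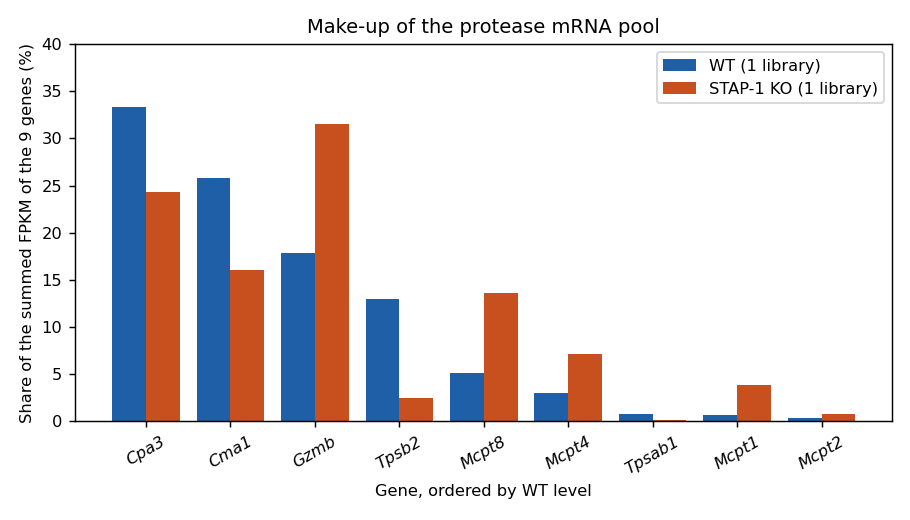
Share of the summed FPKM of the 9 protease genes taken by each gene, in percent, in the WT and the STAP-1 KO library (bars, 1 library each). Gzmb goes from 17.9% to 31.5% and Mcpt8 from 5.19% to 13.6%, while Tpsb2 goes from 12.99% to 2.53%.

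Related copies could share reads, so the 75-base windows of the annotated transcripts of each gene were compared with other transcripts. None of the windows of Cpa3, Tpsb2, Tpsab1, Mcpt8 and Gzmb occurred, with up to 2 mismatches, in another gene of their loci or of the carboxypeptidase family. For Mcpt4, 10.3% of the windows did so, mostly in Cma2, for Mcpt1 6.28% and for Mcpt2 5.67%, mostly in each other. For Cma1 the share was 16.9%, all in the gene model Gm48934, which the files do not list. The coding sequences of Mcpt1 and Mcpt4 were 86.4% identical, those of Mcpt1 and Mcpt2 80.4%, and those of Tpsb2 and Tpsab1 66.7%. The values of Cma1, Mcpt1, Mcpt2 and Mcpt4 are therefore uncertain to the extent of these windows. MicroRNA genes lie within the spans of Cpa3 and Mcpt8 but overlap none of their exons.

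Of the 17 listed genes of the chymase locus from Cma1 to Gzmb, 11 could be compared. Beside the 6 proteases of the set, Cma2 (11.6 and 1.94 FPKM), which lies 6.30 kb from the start of Cma1, and the pseudogene Mcpt-ps1 (72.1 and 16.2 FPKM) were lower, and the pseudogene Gm5801 (32.6 and 47.7 FPKM) did not reach the cut-off. Ctsg, which encodes the neutrophil protease cathepsin G, starts 158 kb from the start of Cma1, between Mcpt8 at 141 kb and Gzmb at 318 kb. It was higher, with 104 FPKM in WT LSCs and 841 FPKM in STAP-1 KO LSCs. Gzmc, a granzyme of cytotoxic lymphocytes next to Gzmb, had 2.39 and 3.82 FPKM. Gzmd, Gzme, Gzmg and Gzmn, other granzymes between Ctsg and Gzmb, were listed at 0 FPKM in both libraries.

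**Figure D4:**
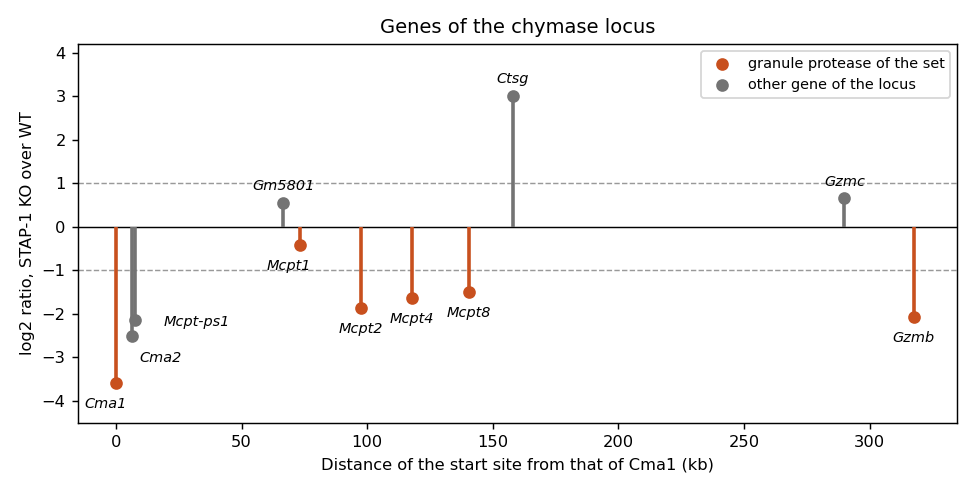
Log2 ratio of STAP-1 KO over WT against the distance of the start site from that of Cma1 in kb, for the 11 genes of the chymase locus with at least 0.1 FPKM in both libraries. The 6 proteases of the set (coloured) lie between -3.57 and -0.41, and Ctsg between Mcpt8 and Gzmb lies at 3.01 (dashed lines, 2-fold).

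At the tryptase locus, Tpsg1, a membrane-anchored tryptase gene whose start lies 2.97 kb from that of Tpsb2, had 195 FPKM in WT LSCs and 12.8 FPKM in STAP-1 KO LSCs, 15.2-fold lower. Prss34, the gene of mast cell protease 11, which basophils express, had 71.1 and 56.7 FPKM and did not pass the cut-off. Of the 9 neighbours listed, 3 could be compared, of which 2, Tpsg1 and Prss30 (0.952 and 0.152 FPKM), were lower and none was higher. Of 14 other metallocarboxypeptidase genes in the files, 3 could be compared and 2 were lower, Cpb1 (46.4 and 4.09 FPKM), which encodes carboxypeptidase B1, and Cpd (20.5 and 1.95 FPKM), which encodes a carboxypeptidase of the Golgi apparatus.

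Genes that act on these proteases were compared in the same way. Of 6 genes of maturation and storage, 5 were lower and none was higher. Ctsc, which encodes the cathepsin that removes the activation peptide of chymases and granzymes, had 1184 and 314 FPKM. Srgn, the serglycin core protein, had 6691 and 1588 FPKM, and Ndst2, an enzyme of heparin sulfation, had 123 and 15.0 FPKM. Of 9 inhibitor genes compared, 4 were lower and none was higher. They were Serpinb1a (1549 and 232 FPKM) and Serpinb6a (67.0 and 16.5 FPKM), which encode inhibitors of serine proteases such as cathepsin G, Cst3 (1421 and 556 FPKM), which encodes cystatin C, and Lxn (223 and 55.5 FPKM), which encodes latexin, an inhibitor of carboxypeptidases. Serpinb9, whose product inhibits granzyme B, had 11.04 and 6.74 FPKM and did not pass the cut-off.

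Among targets of these proteases, 5 of 10 genes could be compared, of which 3 were lower and 1 was higher. The receptor gene F2r (protease-activated receptor 1) had 492 and 155 FPKM, F2rl2 (receptor 3) had 47.0 and 17.1 FPKM, and Mmp2, a matrix metalloprotease, had 16.9 and 0.438 FPKM. F2rl3 (receptor 4) was higher, with 5.66 and 15.2 FPKM. F2rl1, the receptor that tryptase cleaves, was listed at 0.105 FPKM and 0 FPKM.

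MITF and GATA2 are known to act on mast cell protease genes. Mitf had 12.7 and 0.878 FPKM and Gata2 had 409 and 55.2 FPKM, and Stat5b, with 27.8 and 12.9 FPKM, was also past the cut-off. Gata1 (187 and 96.1 FPKM) and Stat5a (20.8 and 18.3 FPKM) were not. No factor of the 5 was higher.

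Of 15 mast cell markers other than proteases, 12 could be compared and all 12 were lower, with a median log2 ratio of -3.12 and a summed level of 15641 FPKM in WT LSCs and 1424 FPKM in STAP-1 KO LSCs. Hdc, the histamine-forming enzyme, had 5629 and 330 FPKM, Tph1, the first enzyme of serotonin synthesis, 4942 and 352 FPKM, Il1rl1, the IL-33 receptor, 521 and 23.3 FPKM, and Kit 468 and 30.1 FPKM. Mrgprb1 and Enpp3 were listed at 0 FPKM in WT LSCs and Mrgprb2 in the STAP-1 KO library. Of 5 basophil markers, 4 were lower, with Prss34 the exception, and the summed level of all 5 was 921 and 134 FPKM. Cd200r3 had 549 and 30.3 FPKM, Il4 274 and 42.2 FPKM, Itga2 11.8 and 0.167 FPKM, and Il3ra 15.1 and 5.16 FPKM. The part that the number of mast cells or basophils in the sorted cells had in the protease values was not tested.

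Cytotoxic lymphocytes and neutrophils also store granule proteases. Of 14 cytotoxic lymphocyte markers, 8 could be compared, of which 3 were lower and none was higher. Prf1, the perforin gene, had 1.30 and 0.621 FPKM, Cd3e 0.869 and 1.09 FPKM, and Gzma 21.1 and 8.70 FPKM, all far below Gzmb in both libraries. Nkg7, a granule protein gene, had 464 and 795 FPKM and did not pass the cut-off. All 5 neutrophil primary granule genes were higher, with a summed level of 529 FPKM in WT LSCs and 4206 FPKM in STAP-1 KO LSCs. Among them were the protease genes Elane (112 and 823 FPKM) and Prtn3 (57.4 and 525 FPKM), and Mpo (248 and 1973 FPKM). Of 10 LSK and stem cell markers, 4 were lower and 1, Slamf1 (3.39 and 8.67 FPKM), was higher.

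**Figure D5:**
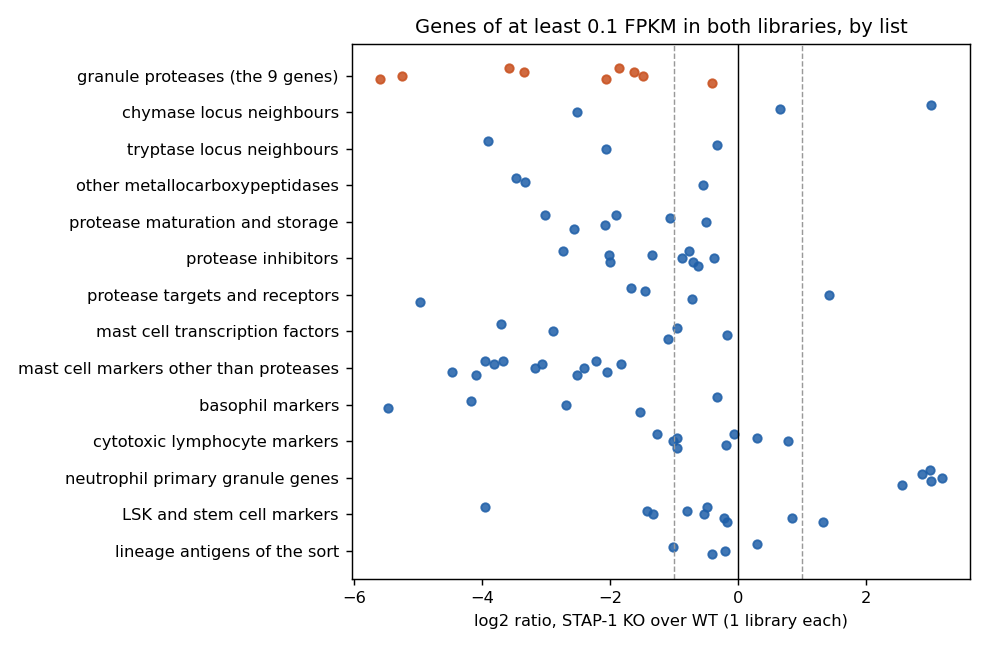
Log2 ratio of STAP-1 KO over WT (1 library each) for the genes with at least 0.1 FPKM in both libraries, by list, with the 9 protease genes in the top row and dashed lines at 2-fold. The other mast cell markers lie between -4.48 and -1.82, the neutrophil primary granule genes between 2.57 and 3.19.

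The genes outside the set with the most similar pair of values were found by their distance to a protease gene on the log2(FPKM + 0.1) scale over the 2 libraries. For Cma1 the nearest were Srgn (a distance of 1.15), Tmsb4x (2.23), a thymosin gene, and Hdc (2.24), and for Cpa3 they were Srgn (1.44), Tmsb4x (2.36) and Fth1 (2.73), the ferritin heavy chain. For Tpsb2 they were Hdc (0.90), Tph1 (1.06) and Lilrb4 (1.55), an inhibitory receptor gene, and for Tpsab1 Cd200r4 (0.61), Ccl2 (0.86) and Eepd1 (0.95). The nearest genes were not always close, since Tmsb4x had a log2 ratio of -0.54 and Fth1 one of -0.39, against -3.57 for Cma1 and -3.34 for Cpa3.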

How the data were processed

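Both RNA-seq libraries were analysed, 1 for each genotype. Per the labels and methods, the authors prepared cDNA with a SMART-Seq v4 kit and libraries with a Nextera XT kit, which do not mark the strand, mapped 75-base single reads to mm10 with TopHat2 2.0.13 and Bowtie2 2.2.3, and deposited FPKM values from Cuffnorm 2.2.1. The gene annotation and the scaling of the libraries are not given in the sources used here.

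Analyses used Python 3.11.15, numpy 2.4.6, pandas 2.3.3, scipy 1.17.1 and Biopython 1.88. The members and gene lists were chosen with earlier results of these data known. Named genes are the 9 proteases, up to 4 genes of each of 13 lists, by the size of the log2 ratio when 1 FPKM is added to each value, the 10 highest genes of each library, genes behind counts of 5 or fewer, and genes nearest to 4 proteases. F2rl1, Serpinb9, Mcpt-ps1, Gm5801, the granzymes at 0, Cd8a and genes at 0 among the mast cell markers were named in addition after their values were seen.

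The comparison with genes of 200 FPKM or more in WT LSCs was added after the values were seen. Medians of lists are over genes whose mean was 1 FPKM or more. Lengths were those of the longest GENCODE M21 transcript, found for 22825 of 23284 symbols. Effective depth was the number of reads, with 208 bases taken off each transcript, at which the largest share of values under 0.3 FPKM of single-transcript genes lay within 0.01 of a whole read (46.8% of 325 WT and 48.1% of 401 STAP-1 KO values). It may include a scaling by Cuffnorm. Counting intervals are exact Clopper-Pearson intervals of the estimated reads. Identities are matching columns of a global alignment (match 1, mismatch -1, gap opening -5, extension -1). The steps were tested on simulated data. Alternatives changed the pseudocount, floor, fold, scaling and lengths. Some lineage genes are not reported here.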

Additional observations from a re-analysis of the deposited data

How the results depend on the processing

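In all 54 recomputed single-gene log2 ratios (9 genes under 6 alternatives each) the value stayed below 0, from -0.93 to -0.31 for Mcpt1 and from -6.03 to -5.47 for Tpsab1. The median log2 ratio of -2.07 was -1.96 when the libraries were scaled to equal sums, -2.01 when scaled to their upper quartiles and -2.48 after a correction for transcript length (20 bins). It was -2.07 at pseudocounts of 1 and 0.01 FPKM and -2.06 when the median ratio of all genes was set to 1. The scalings moved the median of all genes from -0.04 to at most 0.06. The number of protease genes at least 2-fold lower was 8 in each of the 6 alternatives of floor, scaling and length. The share of all compared genes at least 2-fold lower lay between 18.1% and 24.5% in these alternatives. At a 4-fold cut-off 5 protease genes were lower (Cma1, Cpa3, Tpsb2, Tpsab1 and Gzmb), against 8.56% of all genes. No protease gene was higher in any of these. With features under 200 bases left out, the 9 genes made up 9.19% of the WT FPKM and 1.40% of the STAP-1 KO FPKM.

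Estimated reads depend on the transcript assumed. With the shortest coding transcript, Tpsb2 had 38097 and 1399 reads and Tpsab1 3055 and 87. Leaving out a library was not possible with 1 per genotype. No paired analysis was possible because there is 1 library per genotype, although both data columns carry the same number (2). With single libraries, the genotype and any difference between animals, sorts or preparations cannot be told apart.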
